A study of Mus musculus with 26 samples.

Results

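The MHC class I presentation genes described here are the 10 mouse genes H2-K1, H2-D1, B2m, Tap1, Tap2, Tapbp, Psmb8, Psmb9, Psmb10 and Nlrc5, chosen by name out of 39179 gene entries in each count table. All 10 passed the filter on low counts that left 16325 genes for testing. RNA came from mouse cortex taken 3 days after an experimental stroke, with the stroke core and tissue around it, or from mice after a sham operation. Levels are given as CPM, a gene's count relative to the total of its library, with TMM scaling between libraries. In the GENCODE M21 annotation (GRCm38) B2m lies on chromosome 2, Psmb10 and Nlrc5 on chromosome 8 and the other 7 on chromosome 17, which holds the mouse MHC.

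All mice were C57BL/6J, an inbred strain that gains weight on fat-rich food. Mice ate a high-fat diet with 60% of calories from fat or a control diet with 6%. After 15 weeks there were 6 libraries of high-fat stroke cortex and 4 of control stroke cortex. After 6 weeks there were 6 of high-fat stroke, 4 of control stroke, 3 of high-fat sham and 3 of control sham. No 15-week sham group was analysed here, so 15-week stroke was compared with other stroke groups only. The labels give no age or batch, so weeks on the diet, age and separate handling cannot be told apart.

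Class I molecules display fragments of a cell's own proteins at its surface, where CD8+ T cells and natural killer cells read them. Proteasomes cut proteins to peptides, and in inflamed tissue the inducible subunits made from Psmb8, Psmb9 and Psmb10 replace the constitutive catalytic subunits made from Psmb5, Psmb6 and Psmb7. The transporter made from Tap1 and Tap2 carries peptides into the endoplasmic reticulum, tapasin (Tapbp) helps to load them on heavy chains (H2-K1, H2-D1), and B2m is the light chain. Nlrc5 is a transactivator of class I genes, and interferons are strong inducers of the pathway. In healthy brain, class I levels are known to be low in neurons and higher in microglia and endothelium.

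Gene counts per library lay between 11400882 and 16962682. Excitatory neuron markers summed to between 4347 and 7416 CPM and astrocyte markers to between 4111 and 5453 CPM over the 26 libraries, and neither list had a gene at 0 in any group, as the label of cortex would have it. A stroke library of the 15-week high-fat group (replicate 1) and a stroke library of the 15-week control group (replicate 3) stood near sham in markers of microglia and macrophages. Choroid plexus markers summed to 968 CPM in 6-week high-fat stroke replicate 6 and to 281 CPM in high-fat sham replicate 2, against at most 82.5 CPM in the other 24. Values without each pair stand beside the results they move. Without the choroid plexus pair 1833 genes were called for high-fat stroke over sham, against 3769 with it. All p-values measure the spread between libraries, since nothing in the labels says that each comes from a separate animal.

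Promoter sequence is shown first as a description, since class I genes are known to share short promoter elements. Any part of these elements in the stroke differences was not tested. RefSeq windows on GRCm38.p6 (250 bases before to 50 after a start) were at hand for 8 of the 10 members, not for Tap2 and Nlrc5. H2-K1 lies on chr17 and the bases shown are chr17:34000355-34000462, minus strand, positions -115 to -8 from the start. B2m lies on chr2 and the bases shown are chr2:122147544-122147685, plus strand, positions -143 to -2. Capitals mark, in H2-K1, an NF-kB motif (GGGGATTCC), TGACG (the core of X2 boxes, which CREB family factors bind) and ATTGG (a reversed CCAAT, the Y box that NF-Y binds). In B2m they mark an interferon element (GAAANNGAA), TGACG and ATTGG.
H2-K1: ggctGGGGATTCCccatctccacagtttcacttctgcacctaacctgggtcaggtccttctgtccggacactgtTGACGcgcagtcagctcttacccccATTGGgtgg
B2m: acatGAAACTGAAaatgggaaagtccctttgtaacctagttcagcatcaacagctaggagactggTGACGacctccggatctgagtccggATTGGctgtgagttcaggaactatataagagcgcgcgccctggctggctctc

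The next stretches of 30 bases set the heavy chain promoters side by side at their NF-kB motif and at TGACG (capitals). H2-D1 is shown at chr17:35262913-35262942 and chr17:35262988-35263017, plus strand, and H2-K1 at chr17:34000439-34000468 and chr17:34000364-34000393, minus strand. The heavy chain windows were identical at 29 of 30 bases around the NF-kB motif and at 22 of 30 around TGACG.
H2-D1, NF-kB: gcccagggctGGGGATTCCccatctcctca
H2-K1, NF-kB: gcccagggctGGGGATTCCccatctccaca
H2-D1, TGACG: actgaTGACGcgctggcaggtctcactatc
H2-K1, TGACG: actgtTGACGcgcagtcagctcttaccccc

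Both strands of each window were searched for 5 motifs by exact letters, with N for any base. Variants of an element were not searched, so a window without a match may still hold such an element. GGGGATTCC was in the windows of H2-K1 and H2-D1 only among the 8 members, and in 0.25% of all 32851 windows. GAAANNGAA was in B2m (8.56% of all windows) and TTCNNNGAA, an interferon gamma type element, in Psmb8 (8.3%). TGACG was in H2-K1, H2-D1, B2m, Tap1 and Psmb9 (20.8% of all windows), and CCAAT in these 5 and Tapbp (37.4%). The Psmb10 window held none of the 5. Tap1 and Psmb9 are neighbours on opposite strands, and their windows share 275 bases, so a match there counts for both genes. TTCNNNGAA reads the same on both strands, and none of the matches in capitals overlap. A match is a description of letters and not of binding, which was not measured.

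After stroke under high-fat feeding 9 of the 10 genes rose, with Psmb10 the exception, and under control feeding 5 rose, B2m, Tap1, Psmb8, Psmb9 and Nlrc5. A gene counts as risen at an adjusted p under 0.05 in edgeR's quasi-likelihood test with Benjamini-Hochberg adjustment over all 16325 genes. Among all genes tested, 14.2% rose under high-fat feeding and 5.1% under control feeding (23.1% and 7.68% changed in either direction, 8.85% and 2.57% fell). An unadjusted p under 0.05 was reached by all 10 members under high-fat feeding and 8 under control feeding. Of the 16325 genes, 5892 and 3791 reached it. The median log2 fold change of the members was 2.02 under high-fat feeding and 1.14 under control feeding, where the medians of all genes were -0.02 and 0.00. For 9 members every stroke library lay above every sham library of the same diet, on each diet, as it did for 15.8% of all genes under high-fat feeding and 14.9% under control feeding. In cortex RNA, more cells of a type and more RNA per cell cannot be told apart.

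**Figure D1:**
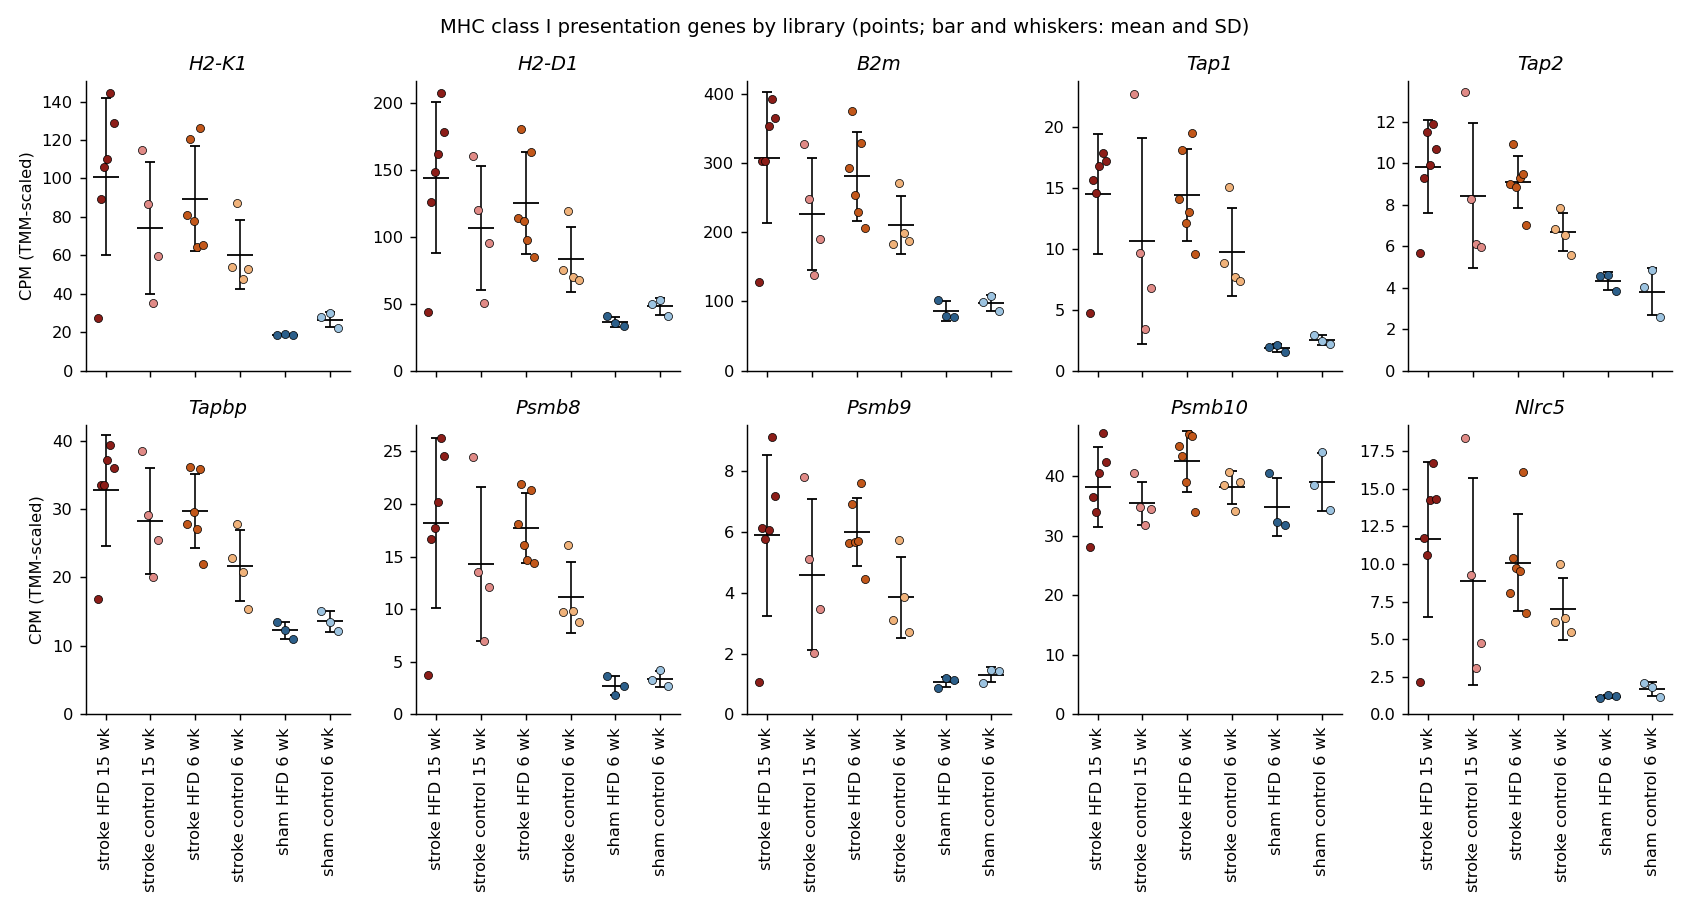
CPM of each member in every library (points), with group mean and SD (bar and whiskers), for stroke at 15 and 6 weeks and sham at 6 weeks on the high-fat (HFD) and control diet. All 6-week stroke libraries stand above the sham libraries of their diet in every panel but Psmb10, and the lowest 15-week high-fat library lies near sham.

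Of the heavy chains, H2-K1 had a lowest level of 64.3, a median of 79.5 and a highest of 127 CPM in high-fat stroke. The 3 high-fat sham libraries had 18.4, 19.0 and 18.7 CPM. Fed the control diet, stroke mice had 53.7, 87.0, 47.5 and 52.9 CPM, against 27.8, 29.8 and 22.1 CPM in control sham. Stroke and sham did not overlap on either diet, and stroke replicate 2 was the high library under control feeding. The log2 fold change was 2.25 ± 0.43 (SE, edgeR adjusted p = 0.00101) under high-fat feeding and 1.19 ± 0.42 (SE, edgeR adjusted p = 0.0886) under control feeding, where it did not pass.

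H2-D1, the other classical heavy chain of this strain, had a lowest level of 84.8, a median of 113 and a highest of 181 CPM in high-fat stroke. Its level was 40.6, 35.9 and 33.1 CPM in the 3 high-fat sham libraries. It had 75.0, 119, 70.3 and 67.9 CPM in control stroke, against 49.7, 52.9 and 41.2 CPM in control sham. Again no stroke library reached down to sham. Its log2 fold change was 1.78 ± 0.39 (SE, edgeR adjusted p = 0.00296) under high-fat feeding and 0.80 ± 0.40 (SE, edgeR adjusted p = 0.232) under control feeding. H2-K1 and H2-D1 share long stretches of sequence with each other and with the H2-Q and H2-T genes, so the split of reads between these genes is uncertain.

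B2m, the light chain, had the highest level per length of the 10 genes, at 327 ± 74.5 CPM per kb of exon in high-fat stroke (SD, n = 6) and 100 ± 16.3 in high-fat sham (SD, n = 3). In CPM, its lowest, median and highest levels were 206, 274 and 376 in high-fat stroke, against 77, 79.1 and 102 in high-fat sham. In control stroke it had 183, 272, 199 and 188 CPM, against 99.3, 109 and 86.2 CPM in control sham. The groups did not overlap, and B2m rose on both diets, by a log2 fold change of 1.71 ± 0.30 (SE, edgeR adjusted p = 0.000566) under high-fat feeding and 1.10 ± 0.30 (SE, edgeR adjusted p = 0.0307) under control feeding.

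The count of H2-K1 over that of H2-D1 lay between 0.661 and 0.774 in high-fat stroke and between 0.454 and 0.567 in high-fat sham. It lay between 0.676 and 0.778 in control stroke and between 0.537 and 0.563 in control sham. This ratio was chosen after its values were seen and is given with no test; its ranges in stroke and sham did not overlap on either diet.

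Of the peptide transporter, Tap1 rose on both diets. It had a lowest level of 9.52, a median of 13.6 and a highest of 19.5 CPM in high-fat stroke. Across the 3 high-fat sham libraries it had 1.95, 2.13 and 1.49 CPM. In control stroke it had 8.79, 15.0, 7.66 and 7.37 CPM, against 2.91, 2.45 and 2.14 CPM in control sham. The groups stood far apart, with the lowest control stroke library above every sham library. The log2 fold change was 2.95 ± 0.52 (SE, edgeR adjusted p = 0.000566) under high-fat feeding and 1.97 ± 0.51 (SE, edgeR adjusted p = 0.0227) under control feeding. Exons of Tap1 and Psmb9 overlap by 212 bases on opposite strands, and the use of strand in counting is not given in the sources used here, so reads there are uncertain.

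Tap2, the partner chain, rose under high-fat feeding and did not pass under control feeding. It had a lowest level of 7.03, a median of 9.14 and a highest of 10.9 CPM in high-fat stroke. Its level was 4.54, 4.61 and 3.82 CPM in the 3 high-fat sham libraries, a log2 fold change of 1.07 ± 0.24 (SE, edgeR adjusted p = 0.00291). In control stroke it had 6.82, 7.83, 6.52 and 5.60 CPM, against 4.01, 4.83 and 2.59 CPM in control sham (log2 0.82 ± 0.26, SE, edgeR adjusted p = 0.0555). Per kb of exon Tap1 stood at 2.63 ± 0.69 and Tap2 at 2.41 ± 0.33 CPM in high-fat stroke (SD, n = 6). In high-fat sham Tap1 stood at 0.338 ± 0.060 and Tap2 at 1.14 ± 0.12 CPM (SD, n = 3). The lengths merge all annotated exons, 5476 bases for Tap1 and 3781 for Tap2, so levels set between the genes depend on them. The Tap1 over Tap2 count ratio, chosen after its values were seen and not tested, ran from 1.35 to 2.05 in high-fat stroke against 0.394 to 0.4656 in high-fat sham. It ran from 1.17 to 1.91 in control stroke against 0.511 to 0.827 in control sham. Exons of Tap2 overlap 2 noncoding genes on the other strand, Gm20496 and Gm15821, by 165 and 533 bases.

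Tapbp, the loading chaperone tapasin, had a lowest level of 22, a median of 28.7 and a highest of 36.1 CPM in high-fat stroke. The 3 high-fat sham libraries had 13.5, 12.3 and 11 CPM. The log2 fold change was 1.28 ± 0.24 (SE, edgeR adjusted p = 0.000766). In control stroke it had 22.9, 27.8, 20.9 and 15.4 CPM, against 15.1, 13.4 and 12.2 CPM in control sham, so that stroke replicate 4 was barely above sham (log2 0.68 ± 0.25, SE, edgeR adjusted p = 0.0920). Exons of Tapbp overlap those of Zbtb22 on the same strand by 149 bases and those of the antisense gene Gm19412 by 904.

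The inducible proteasome subunits split into a pair that rose and 1 gene that did not pass after adjustment. Psmb8 had a lowest level of 14.3, a median of 17.1 and a highest of 21.9 CPM in high-fat stroke. Across the 3 high-fat sham libraries it had 3.67, 1.84 and 2.69 CPM. In control stroke it had 9.78, 16.1, 9.86 and 8.76 CPM, against 3.25, 4.20 and 2.72 CPM in control sham. No stroke library overlapped sham, and the log2 fold change was 2.69 ± 0.47 (SE, edgeR adjusted p = 0.000589) under high-fat feeding and 1.72 ± 0.48 (SE, edgeR adjusted p = 0.0310) under control feeding. Exons of Psmb8 overlap the antisense gene Gm20496 by 498 bases.

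Psmb9 stood lower, with counts from 61 to 119 per library in high-fat stroke against 12 to 17 in high-fat sham, and from 41 to 90 in control stroke against 15 to 22 in control sham. Its CPM was between 4.47 and 7.63 in high-fat stroke and between 0.865 and 1.21 in high-fat sham. Psmb9 rose on both diets, by a log2 fold change of 2.48 ± 0.47 (SE, edgeR adjusted p = 0.000887) under high-fat feeding and 1.55 ± 0.48 (SE, edgeR adjusted p = 0.0498) under control feeding.

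Psmb10 had a lowest level of 34.0, a median of 44.2 and a highest of 47 CPM in high-fat stroke. Its level was 40.4, 32.3 and 31.8 CPM in the 3 high-fat sham libraries. It had 38.5, 40.7, 34.1 and 39.0 CPM in control stroke, against 38.5, 44.1 and 34.3 CPM in control sham. Stroke and sham overlapped on both diets, and the log2 fold change was 0.29 ± 0.13 (SE, edgeR adjusted p = 0.108) under high-fat feeding and -0.03 ± 0.14 (SE, edgeR adjusted p = 0.927) under control feeding. By voom with quality weights, Psmb10 was called under high-fat feeding. Per kb of exon it was the highest of the inducible subunits in sham cortex, at 20.4 ± 2.84 CPM in high-fat sham (SD, n = 3). Psmb8 stood there at 0.809 ± 0.271 and Psmb9 at 0.292 ± 0.049. The merged exon lengths behind these values were 1705 bases for Psmb10, 3381 for Psmb8 and 3660 for Psmb9.

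Ratios within a library need no scaling between libraries, so each inducible subunit was also set against the constitutive subunit it replaces. The mean log2 ratio of Psmb8 to Psmb5 was -1.19 ± 0.28 for high-fat stroke (SD, n = 6) against -3.87 ± 0.37 for high-fat sham (SD, n = 3), a difference of 2.68. The control diet gave -1.87 ± 0.42 for stroke (SD, n = 4) against -3.73 ± 0.26 for sham (SD, n = 3), a difference of 1.86. As counts, Psmb8 was at 0.342 to 0.538 of Psmb5 in high-fat stroke, against 0.0523 to 0.0877 in high-fat sham.

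The log2 ratio of Psmb9 to Psmb6 was -4.20 ± 0.27 in high-fat stroke (SD, n = 6) and -6.44 ± 0.36 in high-fat sham (SD, n = 3), a difference of 2.24. It was -4.82 ± 0.44 in control stroke (SD, n = 4) and -6.26 ± 0.29 in control sham (SD, n = 3), a difference of 1.43. For both ratios stroke and sham did not overlap on either diet. The two-sided exact permutation p was the smallest these group sizes allow, 0.0119 under high-fat feeding and 0.0286 under control feeding, and the adjusted p was 0.1 in each case over the 21 ratio comparisons. The ratio of Psmb10 to Psmb7 overlapped, with a difference of 0.10 under high-fat feeding (two-sided exact permutation p = 0.476, adjusted p = 0.84) and -0.08 under control feeding (two-sided exact permutation p = 0.429, adjusted p = 0.84).

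**Figure D2:**
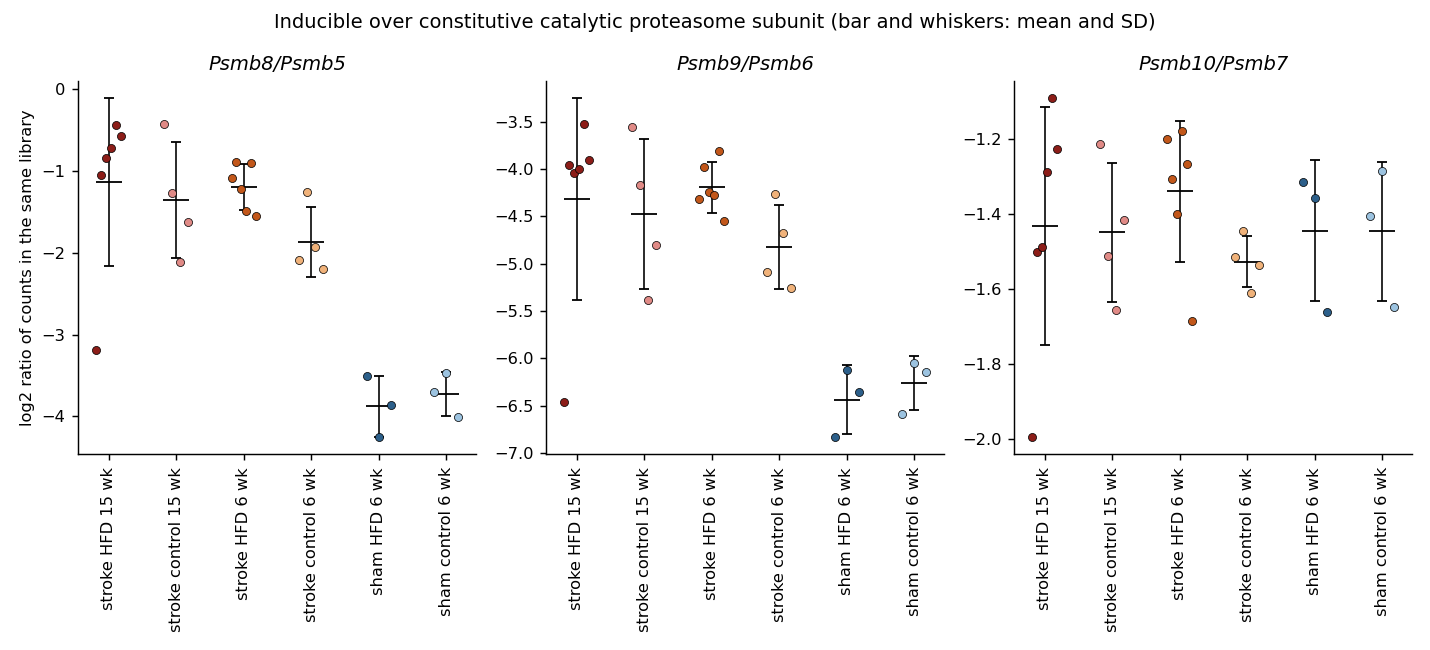
Log2 ratio of counts of each inducible subunit to the constitutive subunit it replaces, in every library (points), with group mean and SD. For Psmb8/Psmb5 and Psmb9/Psmb6 the 6-week stroke libraries lie above all sham libraries, and for Psmb10/Psmb7 the groups overlap. The vertical axes differ between panels.

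Nlrc5, the transactivator, had the largest log2 fold change of the 10 genes on each diet. It had a lowest level of 6.74, a median of 9.62 and a highest of 16.1 CPM in high-fat stroke. Across the 3 high-fat sham libraries it had 1.08, 1.28 and 1.20 CPM. In control stroke it had 6.12, 9.998, 6.43 and 5.46 CPM, against 2.08, 1.82 and 1.17 CPM in control sham. The groups did not overlap, and the log2 fold change was 3.08 ± 0.60 (SE, edgeR adjusted p = 0.00113) under high-fat feeding and 2.06 ± 0.59 (SE, edgeR adjusted p = 0.0356) under control feeding. The counts behind it were 92 to 251 per library in high-fat stroke and 15 to 18 in high-fat sham.

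**Figure D3:**
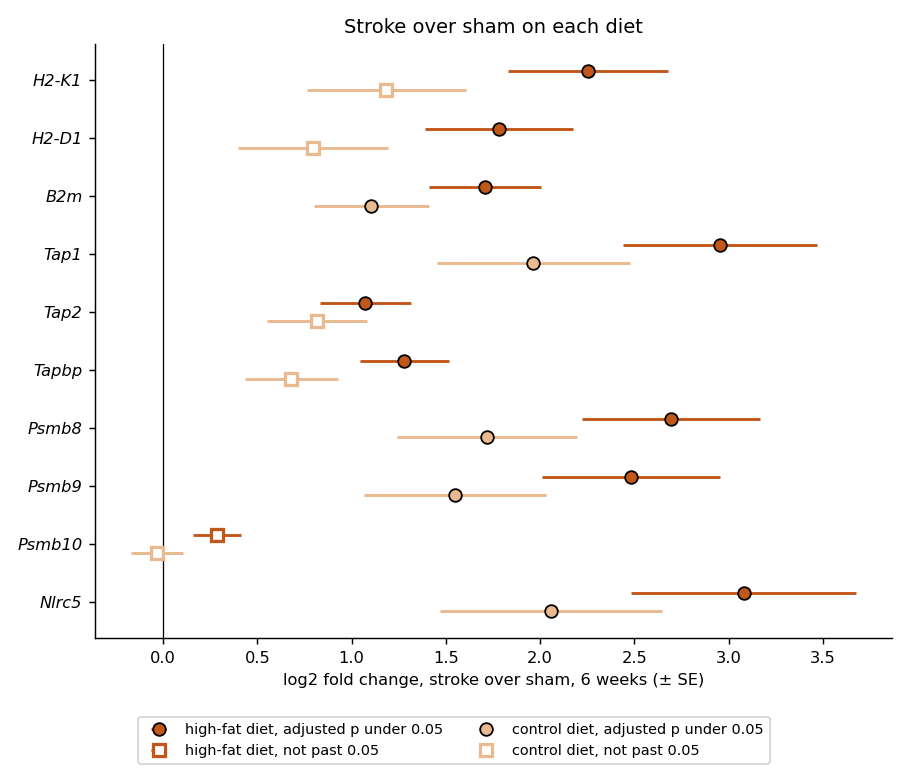
Log2 fold change of stroke over sham at 6 weeks for each member (points, with SE), under high-fat feeding above and the control diet below. Filled points pass an adjusted p of 0.05 in edgeR. The 9 filled points of the high-fat diet lie between 1.07 for Tap2 and 3.08 for Nlrc5.

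The control-diet count of 5 depended on single libraries and on the settings. It was 0 without stroke replicate 2, 0 without any 1 of the 3 control sham libraries, 1 without stroke replicate 3, 0 with no filter on low counts, and 8 by DESeq2 and by voom. Without the pair of 15-week libraries near sham it was 8, and without the choroid plexus pair 4. The count of 9 under high-fat feeding stayed at 9 with each of the 9 libraries left out in turn and without the pair of libraries high in choroid plexus markers.

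The difference between the 2 stroke effects, surgery by diet, was tested next. No member passed in edgeR, nor did any gene (0% called), and 0 members had an unadjusted p under 0.05. Neither DESeq2 nor voom called a member here. All 10 estimates were above 0, with a median log2 difference of 0.95 and a range from 0.26 (Tap2) to 1.07 (H2-K1), where the median of all genes was 0.01. With 1 library left out the Tap2 estimate ran from 0.07 to 0.49. The estimate for H2-K1 was 1.07 ± 0.57 and for Tap1 0.99 ± 0.73 (SE), both with an edgeR adjusted p of 0.832, the lowest of any member. The stroke effect is thus not shown to differ between the diets.

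High-fat feeding within stroke cortex at 6 weeks called 0 members and 0% of all genes in edgeR. Tap2 and Tapbp had an unadjusted p under 0.05, at a log2 fold change of 0.44 ± 0.21 and 0.45 ± 0.20 (SE, edgeR adjusted p = 0.667 for both). DESeq2 and voom called 0 members as well. The 10 log2 fold changes were all above 0, between 0.16 for Psmb10 and 0.67 for Psmb8, with a median of 0.54 against -0.01 for all genes. The groups overlapped for each member, while 1.04% of all genes lay wholly higher. Stroke control replicate 2, for example, had 87.0 CPM of H2-K1, above the high-fat median of 79.5. The log2 ratio of Psmb8 to Psmb5 was -1.19 ± 0.28 in high-fat stroke (SD, n = 6) against -1.87 ± 0.42 in control stroke (SD, n = 4), with a two-sided exact permutation p of 0.0238 and an adjusted p of 0.1. For Psmb9 to Psmb6 the difference was 0.63 (two-sided exact permutation p = 0.019, adjusted p = 0.1).

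In sham cortex the diet also called 0 members and 0% of all genes in edgeR, with 0 members at an unadjusted p under 0.05, and 0 by DESeq2 or voom. There 9 of the 10 log2 fold changes were below 0, with a median of -0.30 (-0.17 without control sham replicate 2), and Tap2 stood at 0.19 ± 0.29 (SE). H2-K1, H2-D1 and Tap1 were lower in every high-fat sham library than in every control sham library, as were 7% of all genes (4.66% lay wholly higher). H2-K1 had 18.4, 19.0 and 18.7 CPM in high-fat sham, against 27.8, 29.8 and 22.1 CPM in control sham (log2 -0.50 ± 0.46, SE, edgeR adjusted p = 0.967). The surgery by diet estimates above take in both these lower sham values and the higher stroke values. The diet comparisons in stroke and in sham share libraries with the surgery by diet estimate and are not separate evidence for it.

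At 15 weeks of diet, high-fat over control stroke again called 0 members and 0% of all genes in edgeR, with 0 members at an unadjusted p under 0.05, and 0 members by DESeq2 or voom. The 10 log2 fold changes lay between 0.11 for Psmb10 and 0.45 for H2-K1, with a median of 0.38, or 0.35 without the pair of libraries near sham. With single libraries left out the median ran from 0.13 without control replicate 3 to 0.72 without control replicate 1, and it was 0.59 without high-fat replicate 1 and 0.24 without high-fat replicate 5. H2-K1 had a lowest level of 27.5, a median of 108 and a highest of 144 CPM in high-fat stroke, against 115, 86.7, 35.1 and 59.7 CPM in control stroke. B2m had 128, 329 and 393 CPM as its lowest, median and highest in high-fat stroke, against 328, 248.5, 138 and 191 CPM in control stroke. For both genes the range in each group was wider than at 6 weeks. Tap1 had 4.69, 16.2 and 17.9 CPM as its lowest, median and highest in high-fat stroke, against 22.7, 9.67, 3.38 and 6.75 CPM in control stroke. Nlrc5 had 2.14, 13 and 16.7 CPM in the same order in high-fat stroke, against 18.4, 9.27, 3.06 and 4.72 CPM in control stroke. Control stroke replicate 1 thus held the highest Tap1 and Nlrc5 of all 10 libraries, and the groups overlapped for every member (0.41% of all genes lay wholly higher and 0.711% wholly lower). The log2 ratio of Psmb8 to Psmb5 averaged -1.13 ± 1.03 in high-fat stroke (SD, n = 6) and -1.36 ± 0.71 in control stroke (SD, n = 4), with a two-sided exact permutation p of 0.748 and an adjusted p of 0.981.

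The weeks on the diet moved no member past the test. Stroke at 15 over 6 weeks under high-fat feeding called 0 members in edgeR against 2.35% of all genes, and under control feeding 0 members against 0.564%, with 0 members at an unadjusted p under 0.05 on either diet and 0 by DESeq2 or voom. The groups overlapped for every member, while 0.557% of all genes lay wholly higher and 1.23% wholly lower at 15 weeks under high-fat feeding, and 3.45% and 5.93% under control feeding. The members' median log2 fold change was 0.12 under high-fat feeding and 0.32 under control feeding. Without the pair of libraries near sham these medians were 0.27 and 0.51, still with 0 members called, and without the choroid plexus pair the high-fat median was 0.06. With 1 library left out the high-fat median ran from 0.05 without 6-week replicate 6 to 0.26 without 15-week replicate 1. The control median ran from -0.07 without 15-week replicate 1, which turned its sign, to 0.53 without 6-week replicate 2 or 15-week replicate 3. The diet by weeks term called 0 members and 0% of all genes in edgeR (0 at an unadjusted p under 0.05, 0 by DESeq2 or voom), with a median of -0.14, or -0.21 without the pair near sham and -0.25 without the choroid plexus pair. With 1 library left out it ran from -0.40 without 15-week control replicate 3 to 0.09 without 15-week control replicate 1, and it was 0.02 without 15-week high-fat replicate 1 and -0.39 without 6-week control replicate 2. No direction was read from it.

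The members also varied together between libraries of 1 group. In high-fat stroke at 15 weeks replicate 1 was the lowest library for all 10 genes. Its levels of H2-K1 (27.5 CPM), H2-D1 (44.1), Psmb8 (3.70) and Psmb9 (1.07) lay inside the range of the sham libraries of both diets together. Its B2m (128 CPM), Tap1 (4.69), Tap2 (5.67), Tapbp (16.9) and Nlrc5 (2.14) lay above every sham library, and its Psmb10 (28.1) below every one. Against high-fat sham alone, only Psmb9 lay inside the range. In control stroke at 15 weeks replicate 3 was the lowest for every member but Tap2, and replicate 1 the highest for all 10. At 6 weeks control stroke replicate 2 was the highest of 4 for every member.

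Myeloid markers moved with these differences, and some other lists did so too. Summed over 10 microglia markers, the level was 919 to 1173 CPM in 6-week high-fat stroke, 652 to 1097 in 6-week control stroke, 334 to 377 in high-fat sham and 347 to 365 in control sham. Of these 10 markers, 10 rose under high-fat feeding and 9 under control feeding, and none was at 0. Over 10 monocyte and macrophage markers the sum was 138 to 375 CPM in high-fat stroke, 83.9 to 257 in control stroke, 19.8 to 23.3 in high-fat sham and 22.1 to 24.97 in control sham. Of these, 10 rose under high-fat feeding and 6 under control feeding, with Ly6c2 at 0 in high-fat sham. Without the choroid plexus pair the microglia counts were 9 and 8 and the monocyte and macrophage counts 7 and 4. In 15-week high-fat stroke replicate 1 and control stroke replicate 3 the microglia sum was 447 and 482 CPM, against 970 to 1327 CPM in the other 8 libraries of 15 weeks. Natural killer and cytotoxic cell markers summed there to 0.164 and 0.0804 CPM. Receptors that bind class I summed to 1.07 and 1.69 CPM. Each of these sums was the lowest of its group. T cell markers went the other way, at 20.4 and 17.7 CPM, each the highest of its group. Control stroke replicate 2 at 6 weeks had the highest microglia sum of its group. The part of these cells in the class I differences was not tested.

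**Figure D4:**
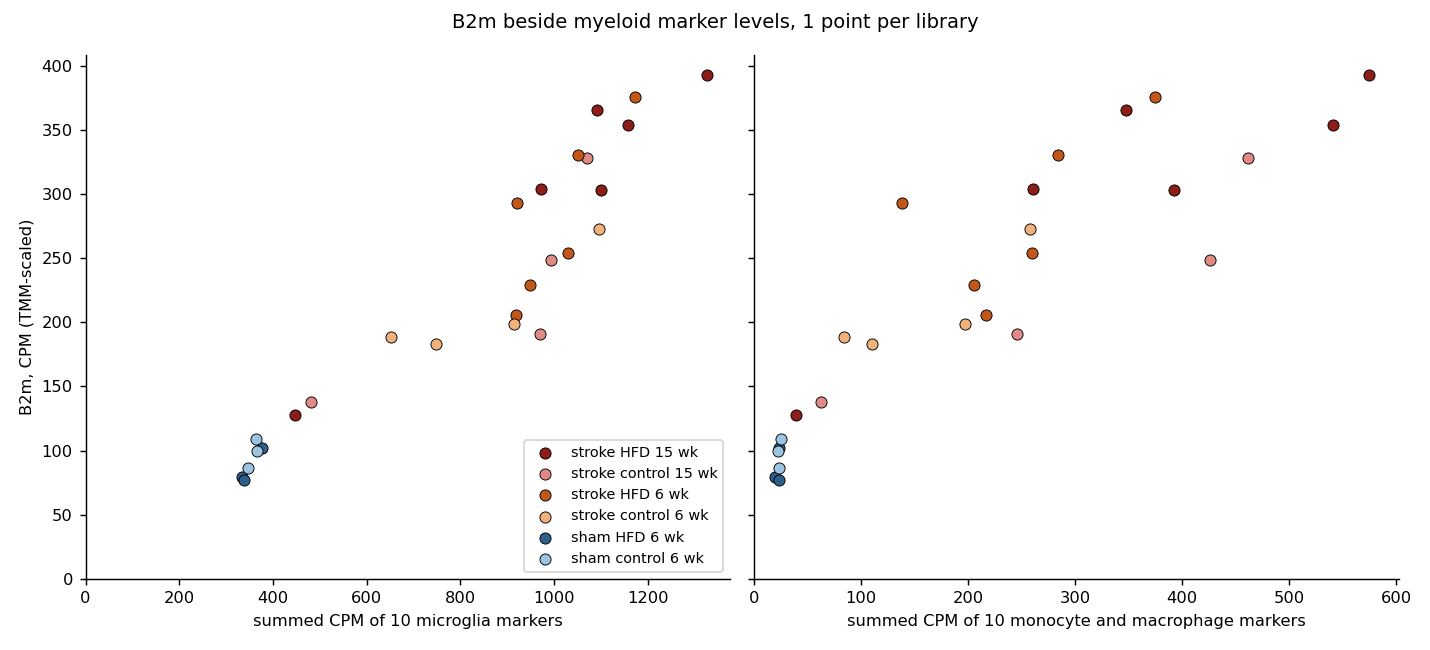
B2m in CPM against the summed CPM of 10 microglia markers (left) and of 10 monocyte and macrophage markers (right), 1 point per library. Sham libraries sit at the lower left and both low 15-week stroke libraries beside them, at 128 and 138 CPM of B2m.

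Endothelium, which also carries class I, had 4 of 10 markers called higher under high-fat feeding and 0 of 10 under control feeding in edgeR (2 at an unadjusted p under 0.05, 0 by DESeq2, 1 by voom). Its summed level was 272 to 369 CPM in high-fat stroke and 207 to 262 in high-fat sham. T cell markers were sparse. Cd8a, a chain of the co-receptor that binds class I, had 11 counts over the 6 libraries of high-fat stroke and 4 over the 4 of control stroke. It had 0 counts in both sham groups, where 0 allows up to 0.0683 CPM under high-fat feeding and 0.0663 CPM under control feeding (3 counts over each group, for counting error only). Over 10 T cell markers the sum was 8.42 to 16.8 CPM in high-fat stroke and 9.64 to 19.5 in high-fat sham. Of 3 that could be tested, 0 were called higher on either diet in edgeR, DESeq2 or voom (1 at an unadjusted p under 0.05 on each diet), and Trbc2 fell under control feeding. Cd3e, Cd3d, Cd8a and Cd8b1 were at 0 in both sham groups. Natural killer and cytotoxic cell markers summed to at most 1.8 CPM in any library, and none of the 8 passed the filter, so none was tested. At 6 weeks the sum was 0.346 to 1.10 CPM in high-fat stroke and 0.071 to 0.144 in high-fat sham. It was 0.395 to 0.764 CPM in control stroke and 0.065 to 0.277 in control sham. Under high-fat feeding 5 of 5 red blood cell markers and 4 of 8 pericyte and fibroblast markers rose after stroke, and 6 of 10 excitatory neuron markers fell. Under control feeding 0, 1 and 0 of these markers were called in edgeR (1, 4 and 5 at an unadjusted p under 0.05). Red blood cell markers summed to 78.3 to 109 CPM in high-fat sham and 132 to 159 in control sham. Of 4 tested dendritic cell markers 2 rose on each diet and 1 fell under high-fat feeding, and their sum was 43.7 to 55.3 CPM in high-fat stroke and 37.9 to 44.2 in high-fat sham. Of 3 tested neutrophil markers 2 rose under high-fat feeding and 0 under control feeding (2 at an unadjusted p under 0.05), with Ly6g at 0 in all groups. Of 8 astrocyte markers 3 rose and 2 fell, and of 8 oligodendrocyte markers 2 rose, under high-fat feeding. Under control feeding 2 astrocyte markers rose and 1 fell, and 0 oligodendrocyte markers were called (0 at an unadjusted p under 0.05). The part of these cell types in the class I differences was not tested.

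Partners of the pathway were taken from lists. Under control feeding no call in these lists held with every library left out in turn. Values in parentheses here are log2 fold changes of stroke over sham ± SE, and genes said to rise or fall had an edgeR adjusted p under 0.05. Among 7 peptide loading and trimming partners, the trimming peptidase gene Erap1 (log2 0.94 ± 0.21), Pdia3 (0.33 ± 0.09) and P4hb (0.59 ± 0.17), both disulfide isomerases of the endoplasmic reticulum, rose under high-fat feeding. Lnpep, another peptidase, fell by 0.17 on the log2 scale. The calls for P4hb and Lnpep did not hold in every setting, nor with every library left out in turn. That for Pdia3 did not hold in every setting. Under control feeding Pdia3 (0.37 ± 0.10) and the chaperone gene Calr (0.30 ± 0.09) rose, and Erap1 was at 0.65 ± 0.22 (SE, edgeR adjusted p = 0.0705). Of 5 proteasome activator and assembly genes, Psme1 (0.89 ± 0.14) and Psme2 (0.92 ± 0.16), which encode the interferon-inducible PA28 cap, rose under high-fat feeding. Psme1 (0.69 ± 0.15) rose under control feeding. The control-diet call for Calr did not hold in every setting.

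The rest of the core proteasome moved by small amounts. Under high-fat feeding Psmb6 (log2 0.20 ± 0.06) and Psmb7 (0.18 ± 0.06) rose and Psmb5 was at 0.03 ± 0.07. Of 11 other core subunits 5 rose, Psmb2 (0.25), Psma4 (0.21), Psma2 (0.19), Psmb3 (0.22) and Psma1 (0.17). None of these rises, nor those of Psmb6 and Psmb7, kept its call in every setting or with every library left out in turn. Under control feeding 0 of these 3 and 0 of these 11 were called in edgeR, with 1 of each list at an unadjusted p under 0.05, and voom called 1 of each list lower while DESeq2 called none. With weeks on the diet, Psmb5 (log2 -0.22) and Psmb4 (-0.26) were lower at 15 than at 6 weeks under high-fat feeding, and the assembly factor gene Pomp (-0.24) under control feeding.

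Of 14 tested class I and class I-like genes outside the 10, 9 rose under high-fat feeding, H2-Q4 (log2 2.63 ± 0.40), H2-Q7 (3.68 ± 0.61), H2-Q6 (2.61 ± 0.49) and the iron regulator gene Hfe (1.20 ± 0.27) with the smallest p. The other 5 were H2-T24, H2-M3, H2-T22, Mr1 and H2-T10. Calls for Mr1 and H2-T10 did not hold in every setting, nor with every library left out in turn. That for H2-T22 did not hold with every library left out. Under control feeding H2-Q7 rose, by 1.83 ± 0.56, a call that did not hold in every setting. H2-Q7 had 12 counts over the 3 high-fat sham libraries and 355 over the 6 high-fat stroke libraries.

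Regulators of class I transcription rose in 9 of 17 cases under high-fat feeding and 6 of 17 under control feeding. Irf9, a factor of the type I interferon response, rose by 2.09 ± 0.33 under high-fat feeding and 1.42 ± 0.34 under control feeding, Irf7 by 3.78 ± 0.65 and 2.35 ± 0.62, and Irf8, a myeloid factor, by 2.23 ± 0.37 and 1.62 ± 0.39. Irf1, an activator of Tap1 and Psmb9, rose by 1.03 ± 0.27 under high-fat feeding and was at 0.41 ± 0.28 (SE, edgeR adjusted p = 0.405) under control feeding. Stat2, Nfkb1 and Socs1 rose under high-fat feeding, and Nfya, a subunit of the factor that binds CCAAT, under control feeding (0.51 ± 0.12). High-fat calls for Irf1 and Socs1 did not hold in every setting, nor with every library left out in turn. That for Irf7 under control feeding did not hold in every setting. Rfx5, Rfxap and Rfxank, the factors of the X1 box, were not called on either diet, with log2 fold changes between -0.08 and 0.19.

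Ciita, the relative of Nlrc5 that controls MHC class II, was also called higher on both diets from few counts. It had 62 counts over the 6 high-fat stroke libraries against 1 over the 3 high-fat sham libraries, a ratio of 29.4 per gene count (exact 95% interval 5.08 to 1178, counting error only). Under control feeding it had 32 counts in stroke against 2 in sham, a ratio of 12.8 (exact 95% interval 3.27 to 110).

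Of the interferon genes only Ifng and Ifnb1 were looked up, and both were hardly seen. Ifng had 3 counts over the 6 high-fat stroke libraries of 6 weeks and 0 in every other group. Ifnb1 had 2 counts in high-fat stroke and 1 in control stroke at 6 weeks, and 0 in both sham groups. At 15 weeks it had 3 counts in high-fat stroke and 1 in control stroke. Of 7 tested receptor and kinase genes, Ifngr1 (log2 0.79 ± 0.19), Ifnar2 (0.81 ± 0.19), Tyk2 (0.33 ± 0.10) and Ifngr2 (0.24 ± 0.09) rose under high-fat feeding. Those of Tyk2 and Ifngr2 did not keep the call in every setting, nor with every library left out in turn. Under control feeding 0 of 7 were called in edgeR (1 at an unadjusted p under 0.05, 0 by DESeq2, 1 by voom). Of receptors that bind class I, Pirb, an inhibitory receptor of myeloid cells, rose on both diets, at 2.07 to 7.51 CPM in high-fat stroke against 0.0708 to 0.360 CPM in high-fat sham (log2 4.60 ± 0.93), and by 3.37 ± 1.00 under control feeding. For Pirb the control-diet call did not hold in every setting. Klra2 rose under high-fat feeding (1.72 ± 0.42).

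**Figure D5:**
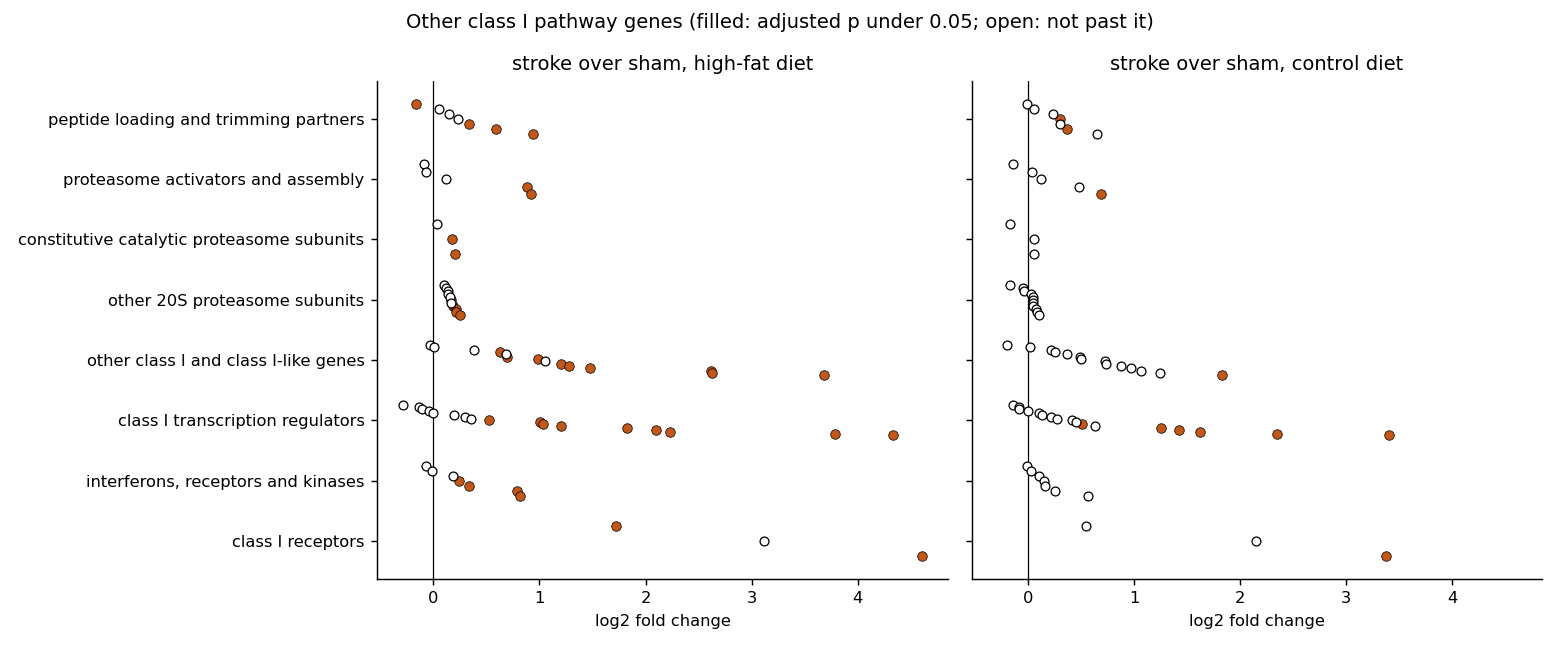
Log2 fold change of stroke over sham at 6 weeks for the tested genes of 8 pathway lists, 1 point per gene, under high-fat feeding (left) and the control diet (right). Filled points pass an adjusted p of 0.05 in edgeR. Core and constitutive proteasome genes lie near 0, and the points farthest right are Pirb and Ciita, which rest on few sham counts.

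After each group's mean was taken off, the 5 genes outside the members that ran most closely with them were H2-T23 (Pearson r = 0.97), Trim30a (0.97), Parp10 (0.97), Bst2 (0.96) and Zc3hav1 (0.96) over 26 libraries. These values describe libraries that share a scaling, and each gene was picked for its r out of all tested genes with a mean of at least 5 CPM. Without the pair of libraries near sham they were 0.92, 0.91, 0.91, 0.89 and 0.88 over 24 libraries. Among the members, r with the mean of the other 9 ran from 0.76 for Psmb10 to 0.98 for H2-D1. Without the pair of libraries near sham it ran from 0.65 for Psmb10 to 0.94 for H2-D1.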

How the data were processed

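Per the labels' protocols, total RNA extracted with Trizol from frozen cortex was made into stranded total RNA libraries and sequenced as pairs on an Illumina instrument. The submitters' processing notes name Trim Galore, STAR, featureCounts, HTSeq and build mm9, with no role or version. Each deposited table holds raw counts for 1 library by Ensembl gene identifier, and its values show no normalization by the authors. The 5 summary entries of each table held 45.69% to 58.16% of its counts and were left out. Names came from GENCODE M21, which matched 37607 of 39179 identifiers, and sequences from RefSeq on GRCm38.p6, whose coordinates were not used with the mm9 counts.

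Genes passed filterByExpr (minimum count of 10) and were fitted in edgeR 4.0.16 (R 4.3.3) by robust quasi-likelihood over all 26 libraries, with TMM scaling, 1 mean per group and 9 contrasts. Calls were made at a Benjamini-Hochberg adjusted p of 0.05. The SE is the log2 fold change over the square root of F. CPM per kb divides by the length of all exons of a gene in GENCODE M21 (GRCm38), merged over its transcripts. This length can exceed that of the main transcript. Ratios within a library used counts plus 0.5 and exact permutation tests of the absolute difference in means (scipy, Python), adjusted over 21 tests. Levels are limited by counting error at low counts, and intervals cover that error only.

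Replicates compared in pairs gave a chi-square per degree of freedom of 3.52 to 76.2, so none was counted as a copy. Members, lists, tests and alternatives were chosen with earlier results of these data known. Named genes are all members, the constitutive catalytic subunits, Ciita and Irf1, of each list up to 4 called genes per direction by smallest p and all where 5 or fewer were called, and the 5 genes most like the members. Alternatives were RLE size factors, DESeq2 1.42.0, voom with quality weights in limma 3.58.1, a stricter filter or none, a fit on the compared groups alone, a prior count of 5 in the ratios, and leaving out single libraries and 2 pairs of libraries. Hm13, H2-T9 and Lilrb4a were not matched and are not reported. 1 gene of the regulator list is counted there and not reported here.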

Additional observations from a re-analysis of the deposited data

Results flagged for a closer look

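In the stroke groups, of 4 or 6 libraries, a library was picked out where its gap to the nearest other, over the group's range, passed Dixon's 95% value. The sham groups, with 3 libraries each, were not searched. Chance picks out about 1 in 20 groups, and 8 of 52 were picked out here. The members vary together, so these are not 8 separate events.

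In control stroke at 6 weeks, replicate 2 lay far above the other 3 libraries, with 87.0 CPM of H2-K1, 119 CPM of H2-D1 and 16.1 CPM of Psmb8. Its microglia marker sum, 1097 CPM, was also the highest of its group.

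In high-fat stroke at 15 weeks, replicate 1 lay far below the other 5, with 128 CPM of B2m, 4.69 CPM of Tap1 and 16.9 CPM of Tapbp. Its log2 ratio was -3.18 for Psmb8 to Psmb5 and -6.46 for Psmb9 to Psmb6. Its monocyte and macrophage marker sum was 39.1 CPM, against 261 to 575 CPM in the other 5. The part of these cells was not tested.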

How the results depend on the processing

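On the high-fat diet the 9 members called for stroke over sham were 9 under each alternative but voom, which called 10, and 9 with each library left out. On the control diet the 5 called were 8 by DESeq2, 8 by voom, 8 with only the groups compared, 8 without both 15-week libraries near sham, 0 with no filter, 4 with RLE size factors, 5 with the stricter filter, and 0 to 7 with 1 library left out. H2-D1 was called on the control diet under none of these. The other 7 comparisons kept 0 members called under every alternative run, and with each library left out. With no filter more genes enter both the fit and the adjustment. The cause of these shifts was not tested.

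Psmb10 on the control diet changed sign, to a log2 fold change of 0.0007 by voom, 0.02 without stroke replicate 3 and 0.0541 without sham replicate 2 (range with 1 library left out -0.1251 to 0.0541). Tap2 for the diet in sham was -0.0156 without control sham replicate 3 (range to 0.4051), and the high-fat difference in Psmb10 to Psmb7 was -0.0037 without sham replicate 3 (range to 0.1739). The other ratio differences kept their sign with a prior count of 5 (1.77 and 1.26 for Psmb8 and Psmb9 on the control diet). They stayed above an adjusted p of 0.05. The smallest exact permutation p these group sizes allow, 0.0119 or 0.0286, made passing over 21 tests hard, so this says little on the prior. Alternatives for the pathway genes were added after seeing the data. Of 11 called on the control diet, 6 (Ciita, Irf8, Irf9, Nfya, Pdia3 and Psme1) kept the call in all 8 settings. With every library left out in turn 0 kept the call. Of 37 called on the high-fat diet, 21 did so in each case. Psmb6, Psmb7, Psmb2, Psma4, Psma2, Psmb3, Psma1, P4hb, Lnpep, Mr1, H2-T10, Irf1, Socs1, Tyk2 and Ifngr2 lost the call in both cases. Genes under about 10 counts, such as Ifng, allow no statement on change at this depth. No paired analysis was possible because the labels give no replicate numbers, and the numbers used here follow the order of accession.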
